A study of Mus musculus with 9 samples.

Results

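The genes of the ephrin, Slit-Robo and netrin guidance families were followed while mouse embryonic fibroblasts (MEFs) were turned into induced neurons (iNs). Members were taken by gene symbol alone, although the families were chosen with earlier results of these data known, and 42 of the 31053 genes in the day 4 tables matched: 5 ephrin-A and 3 ephrin-B ligands, 9 EphA and 5 EphB receptors, 3 Slits, 4 Robos, 3 srGAPs, 3 netrins, 2 netrin-Gs, and 5 genes of the Unc5 and Dcc family of netrin receptors. Of these, 37 had enough unique molecular identifiers (UMIs) to be tested between cell classes, and Epha8, Ntn5, Ntng2, Robo3 and Robo4 did not.

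These families steer growing axons and migrating cells. Ephrins are membrane-bound ligands that signal through Eph receptor tyrosine kinases on a neighbouring cell and also back into the cell that carries them. Slits are secreted and, through Robo receptors, usually repel axons, with srGAPs acting below Robo on the cytoskeleton and the shape of the membrane. Netrins attract axons through Dcc and repel them through Unc5 receptors, and netrin-Gs are membrane-anchored relatives that bind other partners. Outside the nervous system the same genes pattern connective tissue, vessels and limbs, so a fibroblast culture is not a blank background for them.

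The data were 9 droplet libraries of 3′ transcript ends, 1 for each of 3 genotypes (WT, Per1-/- and Per2-/-) on each of days 4, 7 and 10 after doxycycline was added to MEFs transduced with reprogramming factors. Per1 and Per2 encode repressors of the circadian clock, and each mutant is labelled as carrying a germline targeted allele, which would be in all cells of the dish and not only in the neurons. The factors were lentiviral and doxycycline-driven, every library received them, and each dish pooled the cells of several mid-gestation embryos of undetermined sex from which the head and heart had been removed. No genotype was repeated within a day, so in a genotype comparison the 3 days stood in for replicates, in a day comparison the 3 genotypes did, and p-values measured only the spread between those libraries.

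Libraries held 1.27e+08 to 3.53e+08 UMIs, and 5625 to 10517 cells per library passed the filters and fell into 27 clusters, which were built without the guidance genes. The WT day 10 library stood apart, with 55.4% of its barcodes passing against 86.1 to 94.5% elsewhere and a median of 14150 UMIs in the cells kept. The 2 later Per1-/- libraries held almost no transcripts of the X-inactivation RNA Xist (0.0679 and 0.0599 CPM, UMIs of the gene per 1e6 UMIs) against 346 to 993 CPM in the other libraries, so genotype, day and sex of the cells cannot be told apart there. The transcripts of the targeted genes were not absent: Per1 stood at 9.15 to 10.3 CPM in Per1-/- libraries against 6.31 to 7.72 elsewhere, and Per2 at 4.97 to 6.41 in Per2-/- libraries against 2.57 to 3.16. Pairs of libraries shared 0.172 to 0.424% of the barcodes of the smaller one.

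Cell classes were named from marker lists, of 15 genes each for neurons, fibroblasts and macrophages, 13 for skeletal muscle and 8 each for Schwann cells, astrocytes and mesothelium. The neuron list summed to 4345 to 9192 CPM in the neuron-like class against 92.6 to 238 in the fibroblast-like class. The macrophage list, used because macrophages accompany MEFs in culture, summed to 22150 to 29720 CPM in the macrophage-like class against 18.6 to 121 in the fibroblast-like class. The fibroblast list summed to 16910 to 35280 CPM in the fibroblast-like class, 531 to 1452 in the neuron-like class and 305 to 2531 in the macrophage-like class. Each level given here is the CPM of a gene among all UMIs of that class in that library, a scale on which 3′ tags are not divided by transcript length. Differences are log2 values from edgeR's quasi-likelihood test, with Benjamini-Hochberg adjusted p-values over all genes. That test gives no standard error, so each SE given is the absolute log2 difference divided by the square root of its F value. Counts were scaled by TMM, which places the neuron-like class 0.40 lower on the log2 scale than the CPM ratio does.

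**Figure D1:**
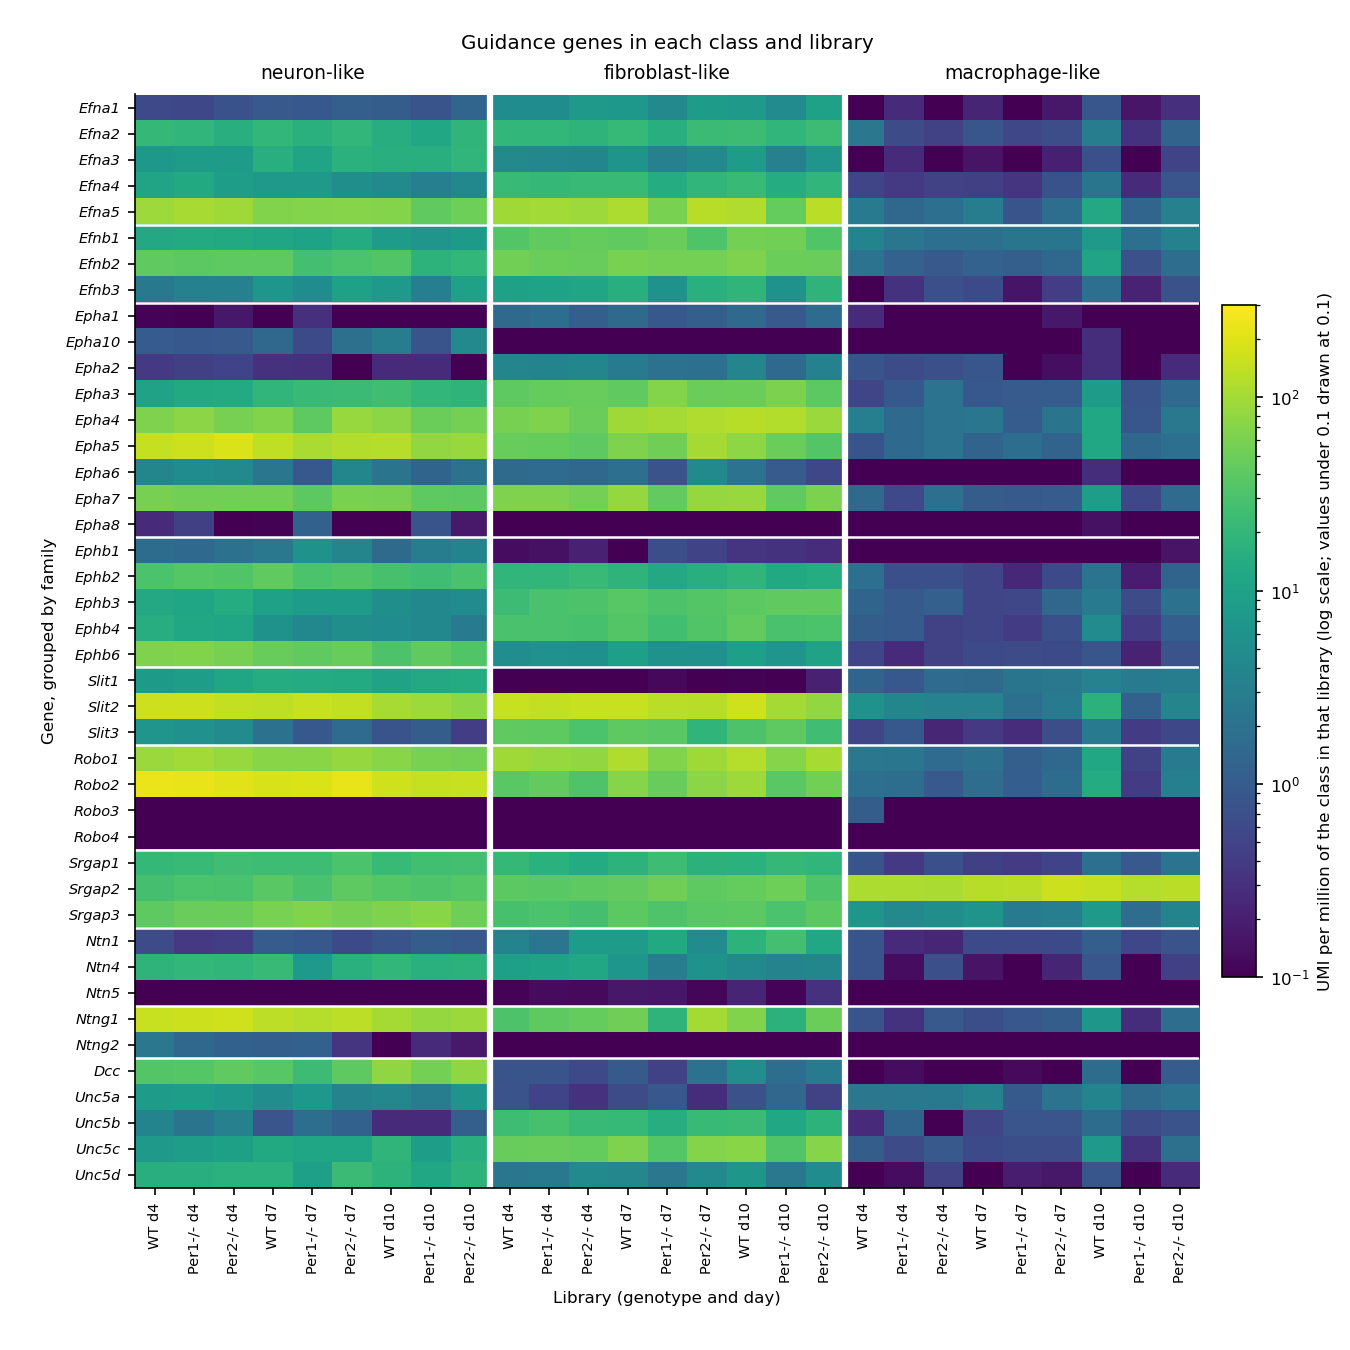
Level of each guidance gene (rows, grouped by family) in the neuron-like, fibroblast-like and macrophage-like sums of each of the 9 libraries (columns), in CPM on a logarithmic colour scale. Srgap2 is the row that stays bright in the macrophage-like block, and that block is otherwise dark apart from the WT day 10 column.

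In the comparison of neuron-like with fibroblast-like sums, 24 of 37 tested members differed by at least 2-fold at an adjusted p under 0.05, where 42.9% of all 14859 genes did. Of these, 10 were higher in neuron-like cells (18.7% of all genes) and 14 were lower (24.2% of all genes). All 24 had the same direction in 9 of 9 libraries, but these libraries also gave the calls, so the agreement is not separate evidence. At a clustering resolution of 0.5 the calls of Ntng1 (0.35), Ntn4 (0.64), Efnb2 (-0.68) and Epha3 (-0.41) were lost, and 20 members were called. The share of all genes called at that resolution is not given here. That resolution also changed which cells the classes held. Its neuron-like class took in a cluster led by Gcg and Nts (5245 cells before doublet removal, 24.9% doublets). Its clusters led by C1qtnf3, Foxd1 and Cyp26b1 (12076, 6493 and 5905 cells before doublet removal) were left unnamed. The members' median log2 difference was -0.65, against -0.04 over all genes tested.

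The 3 Slits each behaved differently. Slit1, a secreted Slit of the nervous system, lay between 7.79 and 14.3 CPM in the neuron-like sums (median 12.4) and between 0.0473 and 0.208 CPM in the fibroblast-like sums (median 0.0837). The groups did not overlap, and the difference was 6.53 ± 0.21 (SE, n = 9 libraries, adjusted p = 8.11e-16, edgeR). After each cell was thinned to 3000 UMIs, 3.19% of 6968 neuron-like cells held a Slit1 UMI (95% Clopper-Pearson interval 2.79 to 3.63%) against 0.0425% of 37661 fibroblast-like cells (0.0243 to 0.069%), and without thinning the shares were 11.3% and 0.199%. Slit3 went the other way, from 18.7 to 42.3 CPM in fibroblast-like sums (median 38.1) down to 0.43 to 6.56 CPM in neuron-like sums (median 1.65), a difference of -4.10 ± 0.35. Slit2 was the most abundant Slit of both classes, with 141 CPM over all neuron-like cells and 131 CPM over all fibroblast-like cells, and its difference of -0.42 was not called.

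The Robo receptors were present in both classes. Robo2 lay between 150 and 235 CPM in neuron-like sums (median 192) and between 32.9 and 93.1 CPM in fibroblast-like sums (median 46.1), without overlap and with a difference of 1.55 ± 0.27. It was the most abundant member of all in neuron-like cells, where 41.3% of thinned cells held a UMI of it. Robo1 lay between 56.3 and 97.5 CPM in neuron-like and between 65.7 and 124 CPM in fibroblast-like sums, ranges that overlapped, and its difference of -0.65 was not called. Robo3 and Robo4 were at or near 0 in both classes.

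The netrin receptors divided within the family. Dcc, the attractive receptor, lay between 24.5 and 80.4 CPM in neuron-like sums (median 40.7) and between 0.471 and 5.08 CPM in fibroblast-like sums (median 0.959), a difference of 4.72 ± 0.27. Unc5a (2.84 ± 0.31) and Unc5d (1.73 ± 0.19) were also higher in neuron-like cells, at 6.80 and 16.5 CPM over all their cells. The other repulsive receptors were lower there. Unc5c fell from 34.6 to 71.2 CPM in fibroblast-like sums (median 48.8) to 7.53 to 18.6 CPM in neuron-like sums (median 11.2), and Unc5b fell from a median of 22.4 CPM to one of 1.22 CPM, differences of -2.68 ± 0.23 and -4.03 ± 0.28.

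Of the netrins tested, 1 was lower and 1 higher in the neuron-like class. Ntn1, the secreted ligand of Dcc, lay between 2.31 and 27 CPM in fibroblast-like sums (median 8.24) but between 0.38 and 1.06 CPM in neuron-like sums (median 0.807), a difference of -3.86 ± 0.25 that was -1.19 at a clustering resolution of 0.5. Ntn4, a netrin found in basement membranes, was at 18.4 CPM in neuron-like cells and higher by 1.08 ± 0.22. The Ntn4 call was lost in 7 of 18 alternatives, among them limma-voom, no filter on low counts and any 1 day 10 library left out, with differences down to 0.64. Ntng1, the membrane-anchored netrin-G1, lay between 84.5 and 167 CPM in neuron-like sums (median 134) against 17.3 to 102 CPM in fibroblast-like sums (median 45.1). Those ranges overlapped between libraries, although the gene was higher in the neuron-like sum of each of the 9 libraries, and the difference was 1.24 ± 0.29.

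For ephrins, all 3 ephrin-B ligands were lower in neuron-like cells. Efnb1 lay between 6.60 and 13.8 CPM there against 33.0 to 55.4 CPM in fibroblast-like sums, a difference of -2.36 ± 0.19, and Efnb3 differed by -1.61 ± 0.19. Efnb2 lay between 17.7 and 42.0 CPM in neuron-like against 46.3 to 64.8 CPM in fibroblast-like sums, and its difference of -1.16 ± 0.24 dropped to -0.75 when total UMIs were used for scaling in place of TMM, under the 2-fold threshold. Among ephrin-A ligands Efna1 (-3.31 ± 0.21) and Efna4 (-1.89 ± 0.22) were lower. Efna5, the most abundant ephrin of both classes at 82.6 CPM in neuron-like and 100 CPM in fibroblast-like cells, had an uncalled difference of -0.76.

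Eph receptors moved in both directions. Epha10, a kinase-inactive member of the family, was at 0.605 to 4.38 CPM in neuron-like sums (median 1.02) and at no more than 0.026 CPM in fibroblast-like sums, a difference of 5.93 ± 0.31. Ephb6, which also lacks kinase activity, lay between 32.3 and 65.7 CPM in neuron-like sums (median 46.0) and between 5.10 and 10.2 CPM in fibroblast-like sums (median 6.08), a difference of 2.40 ± 0.19. Ephb1 was higher as well (2.95 ± 0.25), from at most 0.692 CPM to between 1.56 and 6.04 CPM. Both Eph receptors without kinase activity were among the 10 members that were higher, a pair that was not tested as a group.

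The receptors lower in neuron-like cells were Epha1 (-4.40 ± 0.37), Epha2 (-3.88 ± 0.30), Ephb4 (-2.61 ± 0.29), Ephb3 (-2.38 ± 0.25) and Epha3 (-1.87 ± 0.24). Epha2 and Ephb4 are receptors best known from epithelium and vessels. Epha3, a receptor of mesenchyme and of developing axons, lay between 39.8 and 67.8 CPM in fibroblast-like and between 9.94 and 25.8 CPM in neuron-like sums, without overlap. Epha5 had the highest Eph level of the neuron-like class, 141 CPM over all cells and 81.0 to 192 CPM across libraries, and its difference of 0.82 was short of the threshold under TMM but was called at 1.22 under total UMI scaling, as Efna3 was at 1.37.

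The srGAPs, which act below Robo, were present in both classes and none of the 3 was called. Srgap3 was at 51.4 CPM in neuron-like cells, Srgap2 at 33.0 CPM and Srgap1 differed by 0.03.

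Low values in the neuron-like class need to be read beside RNA from other cells. The 6 fibroblast genes Col1a1, Col1a2, Col3a1, Dcn, Lum and Postn stood in neuron-like sums at 0.807 to 18.6% of their fibroblast-like level, with a median of 3.1%. On the same ratio Slit3 was at 1.65 to 15.5%, Unc5b at 1.16 to 15%, Epha2 at 2.52 to 17.1%, Ntn1 at 3.91 to 17.8% and Epha1 at 0 to 33.1%. The upper end of the marker range came from Postn (2.66 to 18.6%). Its median of 6.49% was above those of Unc5b (6.37%), Epha1 (5.23%) and Slit3 (4.84%). The other 5 markers reached at most 5.49%, which the highest value of each guidance gene just named and the medians of Unc5b, Ntn1 (8.06%) and Epha2 (11.6%) exceeded. The part of fibroblast RNA in these levels was not tested. Efnb1 (11.9 to 41.8%), Efna1 (10.2 to 21.1%) and Unc5c (16.3 to 30.4%) had lowest values above those 5 markers.

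**Figure D2:**
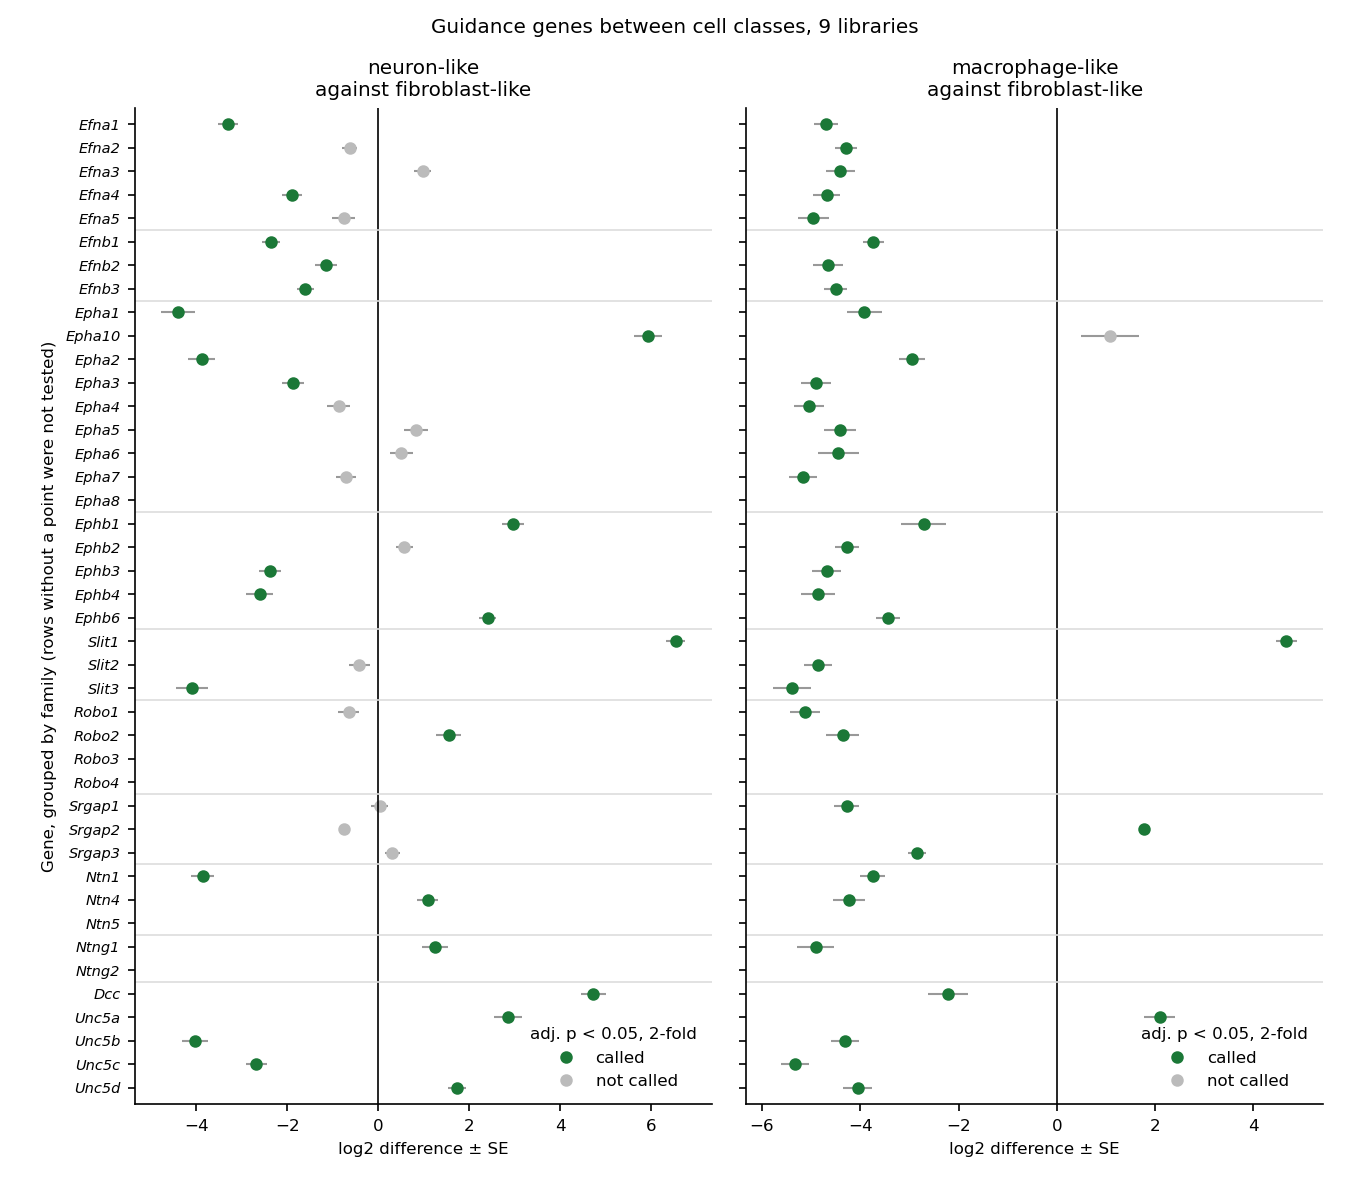
Log2 difference ± SE of each tested guidance gene, neuron-like against fibroblast-like (left) and macrophage-like against fibroblast-like (right), from 9 libraries, with green for genes called at an adjusted p under 0.05 and at least 2-fold. The left panel spreads from -4.40 (Epha1) to 6.53 (Slit1), whereas the right panel holds 33 genes on the negative side and 3 called on the positive side.

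Macrophage-like cells held little RNA of these families. Against fibroblast-like sums 36 of 37 tested members were called, where 48.6% of all genes were, and 33 of them were lower (29.5% of all genes) while 3 were higher (19.1% of all genes). The members' median log2 difference was -4.36 against -0.12 over all genes. The decreases ran from -2.22 for Dcc to -5.40 for Slit3, Epha6 differed by -4.44 ± 0.41, and Epha10 was the member not called (1.08, adjusted p = 0.13, edgeR). Over all its cells, the most abundant ephrin, Eph, Slit and Robo of the class stood at 2.54 CPM (Efnb1), 2.12 CPM (Epha4), 3.30 CPM (Slit2) and 2.04 CPM (Robo2). In their highest library these genes were at 7.35, 11.9, 17.25 and 13.7 CPM, and the ephrin Efna5 was at 12.6 CPM in its own.

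Fibroblast RNA was present in the same macrophage-like sums, and its part in the members' levels was not tested. The median of 6 fibroblast markers was 0.907 to 3.02% of the fibroblast-like level in 8 libraries and 8.61% in WT day 10. The 39 members other than Srgap2, Slit1 and Unc5a, of which 37 to 39 had a ratio in a given library, had medians of 1.51 to 4.39% in the 8 libraries and 10.5% in WT day 10, and together summed to 17.5 to 48.4 CPM in the 8 libraries against 167 CPM in WT day 10. Over all 9 libraries these medians were 6.31 to 14.7% with doublets kept. They were 0 to 3.53% in macrophage-like cells low in fibroblast marker UMIs. Of the 42, 7 were above every one of the 6 markers in all 9 libraries, namely Srgap2, Slit1, Unc5a, Srgap3, Efnb1, Ephb2 and Efna2. How many of all genes were above the markers in this way was not counted, so the count has no background share. With doublets kept the list was 5 genes long and lacked Ephb2 and Efna2, and in macrophage-like cells low in fibroblast marker UMIs it lacked the same 2 and held Epha2 and Ntn1 in their place. Those cells were selected on the markers themselves, which lowers the marker ratios (median 0.762% against 2.31%) that the members are set against.

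**Figure D3:**
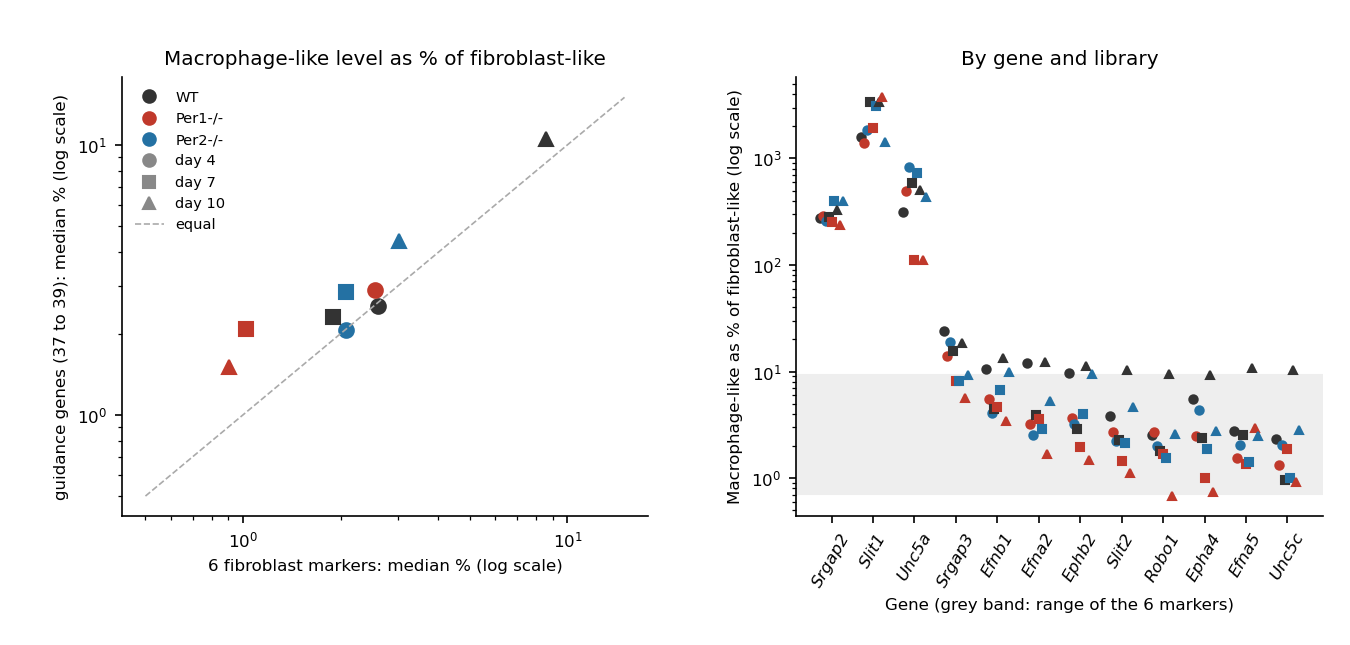
Macrophage-like level as a percent of the fibroblast-like level of the same library, on logarithmic axes: medians of the 37 to 39 guidance genes with a ratio in that library against those of 6 fibroblast markers with 1 point per library (left), and chosen genes with 1 point per library beside the range of the markers in grey (right). WT day 10 is the highest point on both axes (8.61 and 10.5%), and Srgap2, Slit1 and Unc5a lie above 100% in all 9 libraries.

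Srgap2 was the guidance gene of the macrophage-like class. It lay between 107 and 165 CPM in macrophage-like sums (median 125) and between 33.0 and 52.1 CPM in fibroblast-like sums, and it was the 1 member above both other classes in all 9 libraries. The difference was 1.78 ± 0.092, and 32.4% of thinned macrophage-like cells held a UMI of it against 11.4% of fibroblast-like and 8.25% of neuron-like cells. Srgap2 encodes a GTPase-activating protein of Rac with a membrane-bending domain. Over all libraries it stood at 145 CPM in cluster 5 (led by Fcrls and Pf4), 138 CPM in cluster 21 (led by Ighm and Siglech) and 88.3 CPM in cluster 19 (led by histone and proliferation genes).

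Slit1 and Unc5a were above fibroblast-like cells at a much lower level. Slit1 lay between 0.912 and 3.53 CPM in macrophage-like sums, above the highest fibroblast-like value of 0.208 CPM in each library (4.67 ± 0.21). Unc5a lay between 0.961 and 3.68 CPM against 0.285 to 1.41 CPM in fibroblast-like sums (2.10 ± 0.31), and was higher in each library's own pair. Both are neighbours of genes that macrophages express, which was looked up after these values were seen. Slit1 (chr19:41600257-41743665, minus strand, mm10) lies 22922 bases downstream of Arhgap19 (chr19:41766588-41802047, same strand) with no protein-coding gene between, and Arhgap19 was at 171 CPM in macrophage-like, 3.69 in fibroblast-like and 2.11 in neuron-like cells.

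In each genotype Slit1 and Arhgap19 were lowest on day 4 in the macrophage-like class, although Slit1 ranges of the days overlapped: Slit1 stood at 1.34, 0.912 and 1.63 CPM in WT, Per1-/- and Per2-/- on day 4 and at 1.60 to 3.53 CPM later, and Arhgap19 at 104, 99.2 and 89.1 CPM on day 4 and at 145 to 219 CPM later. This order was not particular to the 2 neighbours. Srgap2, on chromosome 1, was also lowest on day 4 in each genotype, at 112, 111 and 107 CPM against 122 to 165 CPM later. Unc5a (chr13:54949411-55006018, plus strand) overlaps the end of Hk3 (chr13:55005985-55021385, minus strand) by 34 bases. Hk3, a hexokinase of myeloid cells, was at 30.3 CPM in macrophage-like and 0.0637 CPM in fibroblast-like cells, but the order among clusters was not that of Unc5a, which stood at 8.06 CPM in cluster 21 against 1.30 in cluster 5 and 1.33 in cluster 19, where Hk3 stood at 11.7, 30.8 and 38.5 CPM. Whether reads of the neighbours were counted as Slit1 or Unc5a was not tested.

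Guidance genes changed in neuron-like cells between days 4 and 7. Of 36 members tested, 15 were called, where 24.4% of all 13818 genes were, 6 of them higher on day 7 (12.5% of all genes) and 9 lower (11.9%). All 15 moved the same way in 3 of 3 genotypes, but these libraries also gave the calls, so the agreement is not separate evidence. The count was 7 without WT day 7, 7 without Per2-/- day 7 and 7 at a clustering resolution of 0.5, and Ephb6 was the 1 gene called in all 3 of these fits. How many of all genes those fits called is not given here. A loss particular to guidance genes therefore cannot be told from a wider one. Each genotype had 1 library a day, and the neuron-like class changed in makeup at the same time: cluster 15 (led by Snhg11, Caly and Stmn3) made up 0.613, 1.89 and 2.40% of neuron-like cells on day 4 in WT, Per1-/- and Per2-/-, then 41.4, 32.1 and 63.5% on day 7 and 90.9, 77.5 and 88.9% on day 10, with cluster 4 (led by Miat and Lhx3) holding the rest.

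The 9 genes that fell from day 4 to day 7 were led by Slit3, Unc5b and Ephb4, each also lower in neuron-like than in fibroblast-like cells. Slit3 stood at 6.56, 5.81 and 4.83 CPM on day 4 and at 1.98, 0.907 and 1.65 CPM on day 7 in WT, Per1-/- and Per2-/- (-1.80 ± 0.28, adjusted p = 0.000878, edgeR). Ephb4 fell from 14.8, 12 and 11 CPM to 5.83, 4.23 and 5.47 CPM (-1.25 ± 0.18, adjusted p = 0.000553, edgeR). Unc5b (-1.46 ± 0.42), Efna4 (-0.69 ± 0.19), Ephb3 (-0.57 ± 0.16) and Efna5 (-0.55 ± 0.13) fell too, with smaller falls for Ephb6, Epha5 and Ntng1 (-0.48, -0.47 and -0.33). The call was lost in 2 of 17 alternatives for Slit3 and in 5 of 16 for Unc5b. Of 18 alternatives it was lost in 9 for Efna4, 7 for Ephb3, 6 each for Epha5 and Ntng1, 5 for Efna5, 3 for Ephb4 and 1 for Ephb6. The direction turned in 1 more each for Ephb3, Epha5, Ntng1 and Ephb6.

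The genes that rose were Efnb3 (1.12 ± 0.27), Ephb1 (1.08 ± 0.33), Efna3 (0.84 ± 0.16), Epha3 (0.83 ± 0.16), Slit1 (0.57 ± 0.16) and Srgap3 (0.39 ± 0.12). Efna3 went from 7.26, 8.32 and 8.13 CPM to 15.4, 10.6 and 16.6 CPM, and Epha3 from 9.94, 12.9 and 13.6 CPM to 19.2, 22.4 and 23.5 CPM, without overlap in either case. Slit1 went from 7.79, 8.89 and 11.1 CPM to 14.3, 13.6 and 13.3 CPM. Of 18 alternatives, the call was lost in 7 for Efnb3 (down to 0.12), in 7 for Ephb1, in 6 each for Slit1 and Srgap3, in 3 for Efna3 and in 2 for Epha3. The direction turned in 1 more for Ephb1 (-0.0138 in cluster 15 alone) and 1 more for Epha3 (-0.23 at a clustering resolution of 0.5).

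Within cluster 4 alone Srgap3 and Slit1 were called, 12 of the others were not, and Unc5b was too low to be tested. Cluster 15 alone gave no call, with 9 WT cells on day 4. The shares of all genes called within these clusters are not given here.

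Between days 7 and 10 the neuron-like class showed 5 calls among 36 members, where 14.5% of all genes were called, 1 higher (7.96% of all genes) and 4 lower (6.49%). Dcc, the netrin receptor, rose from 37.2, 24.5 and 40.7 CPM on day 7 to 80.4, 56.2 and 79.6 CPM on day 10 (1.15 ± 0.12, adjusted p = 0.00013, edgeR). Its day 4 levels were 35.3, 36.1 and 43.0 CPM, so in Per1-/- the rise started from a day 7 level below that of day 4, and all 3 day 10 levels lay above every earlier one. Dcc was also the 1 member called in cluster 15 alone, and in cluster 4 alone its difference of 0.58 was not called. Slit2 fell from 140, 155 and 144 CPM to 105, 91.6 and 76.7 CPM (-0.61 ± 0.093, adjusted p = 0.00165, edgeR), and Ntng1, Ephb3 and Efnb1 fell by 0.42, 0.78 and 0.56 on the log2 scale. Of 18 alternatives, the call was lost in 3 for Slit2 (resolution 0.5 and each neuron-like cluster alone, down to -0.35), in 6 for Ntng1, in 8 for Ephb3 and in 12 for Efnb1, and the direction turned in 1 more for Ephb3 (0.41 in cluster 4 alone) and 1 more for Efnb1 (0.14 at a clustering resolution of 0.5).

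Cluster 15 held more Dcc than cluster 4 (57.2 against 38.5 CPM over all libraries) and less Slit2 (94.5 against 163 CPM), Efna5 (55.2 against 95.5 CPM), Ephb6 (38.8 against 61.0 CPM) and Slit3 (0.7 against 5.3 CPM). The part of the change in makeup in the day differences was not separated beyond the fits within clusters. Day 10 tables were also made with another Cell Ranger version than those of days 4 and 7, so day 10 and version cannot be told apart.

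**Figure D4:**
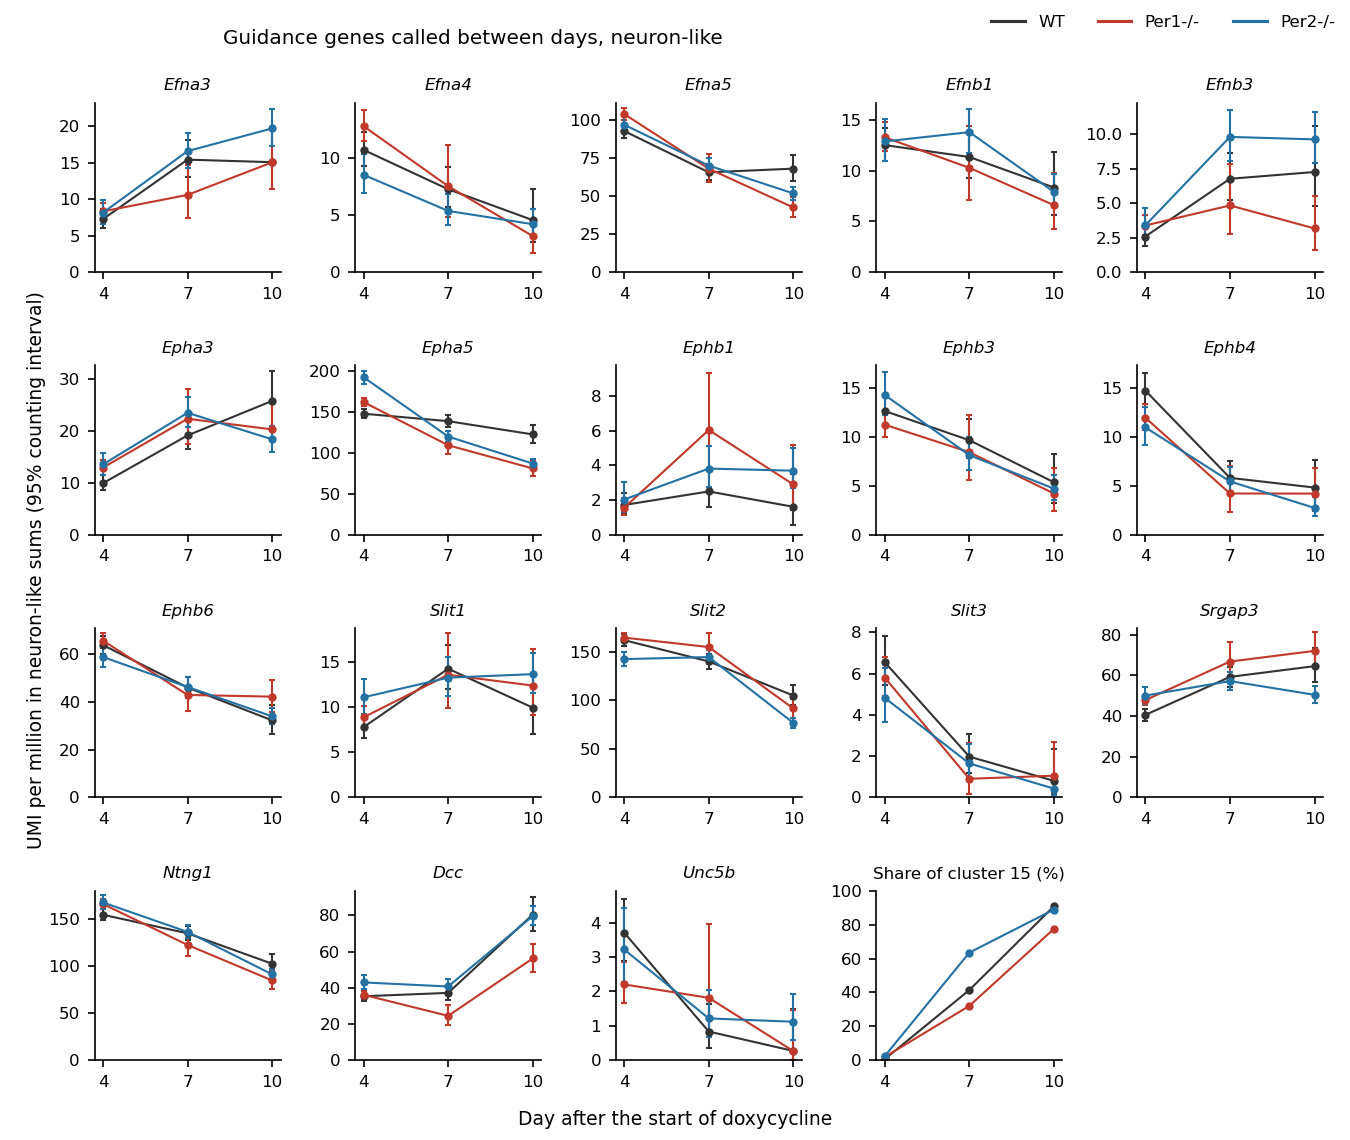
CPM in neuron-like sums on days 4, 7 and 10 for the 18 guidance genes called between consecutive days, 1 line per genotype with 95% counting intervals, and the share of cluster 15 among neuron-like cells (last panel, percent). Dcc steps up between days 7 and 10 in each genotype, Slit3 and Ephb4 drop between days 4 and 7, and cluster 15 rises from at most 2.40% to at least 77.5%.

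In fibroblast-like cells edgeR and limma-voom called 1 of 36 members between days 4 and 7, and DESeq2 called 4 (Epha4, Ephb2, Epha2 and Ntn4), where it called 7.92% of all genes. Epha4, a receptor for both ephrin classes, rose from 57.9, 63.3 and 47.8 CPM on day 4 in WT, Per1-/- and Per2-/- to 96.5, 101 and 115 CPM on day 7 (0.86 ± 0.13, adjusted p = 0.0411, edgeR). Of all genes edgeR called 0.985%, 0.456% higher and 0.529% lower. The Epha4 call held without Per2-/- day 10 and was lost without any 1 of the other 8 libraries, where its log2 difference was 0.67 to 0.96. It was also lost at a clustering resolution of 0.5, with only the fibroblast-like clusters that lacked other marker lists, and in each of clusters 1, 3, 7, 13 and 14 alone, where the difference was 0.21 to 0.73. Between days 7 and 10 edgeR and limma-voom called none of 36 members (1.05% of all genes by edgeR, 0.869% higher and 0.176% lower), and DESeq2 called 0 (347 of all genes). By edgeR 1 member had an unadjusted p under 0.05 (1395 of all 16448 genes). In macrophage-like cells edgeR called none of 28 members in either step, with 2 and 2 at an unadjusted p under 0.05 (2365 and 971 of all 12533 genes). DESeq2 and limma-voom called no member, and DESeq2 called 414 and 162 of all genes. The edgeR calls were 0.136% of all genes from day 4 to day 7 (0.0957% higher, 0.0399% lower) and 0.902% from day 7 to day 10 (0.782% higher, 0.12% lower).

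With all libraries and the filter on low counts, edgeR called no guidance gene between genotypes in any of the 3 classes. In neuron-like cells edgeR called 0 of 36 members for Per1-/- against WT, Per2-/- against WT and Per1-/- against Per2-/- (0.00724, 0 and 0% of all genes), with 2, 3 and 4 members at an unadjusted p under 0.05 (518, 674 and 866 of all 13818 genes). DESeq2 and limma-voom called no member, and DESeq2 called 8, 17 and 24 of all genes. Without the filter on low counts, edgeR called Unc5d (-0.59) and Dcc (-0.46) for Per1-/- against Per2-/-. The shares of all genes above are not those of that fit. In fibroblast-like cells edgeR called 0 of 36 in each contrast (0, 0 and 0% of all genes), with 9, 3 and 11 at an unadjusted p under 0.05 (1764, 1195 and 2261 of all 16448 genes). There was no call by limma-voom, while DESeq2 called 0, 0 and 3 (Efna1, Slit3 and Efnb3 for Per1-/- against Per2-/-) and 1.98, 0.669 and 2.92% of all genes. In macrophage-like cells edgeR called 0 of 28 (0.00798, 0 and 0.00798% of all genes), with 10, 2 and 3 at an unadjusted p under 0.05 (1269, 1980 and 1521 of all 12533 genes). There was no call by limma-voom, while DESeq2 called 1, 0 and 0 (Efna5 for Per1-/- against WT) and 0.654, 1.67 and 0.83% of all genes.

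In neuron-like cells the abundant receptor Robo2 changed order between days. On day 7 it stood at 183, 192 and 228 CPM in WT, Per1-/- and Per2-/-, and on day 10 at 170.5, 150.4 and 154 CPM. Its fitted difference for Per1-/- against WT was -0.03 ± 0.098. Dcc was lowest in Per1-/- on days 7 and 10 (24.5 and 56.2 CPM) but not on day 4, with a difference of -0.30 ± 0.12 against WT (adjusted p = 0.9998, edgeR).

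In macrophage-like cells 26 of the 28 tested members had a lower fitted value in Per1-/- than in WT, and 16 of 42 were lower on all 3 days. How many of all genes were lower, or lower on all 3 days, was not counted for any genotype comparison. The member counts here and below therefore have no background share to be read against. Over all genes the median log2 difference lay between -0.01 and 0.00 in each comparison. Members other than Srgap2 were also low in this class. For Per2-/- against WT, which shares the WT libraries, 24 of 28 had a lower fitted value and 10 of 42 were lower on all 3 days, but the direction turned at a clustering resolution of 0.5 (4 of 15 lower, median 0.08) and in macrophage-like cells low in fibroblast marker UMIs (1 of 6 lower, median 0.49), both without Srgap2, Slit1 and Unc5a. Without WT day 10 it turned too, with 9 of 26 lower and a median of 0.25. For Per1-/- against Per2-/-, 26 of 28 were lower in Per1-/- and 14 of 42 on all 3 days. Without Srgap2, Slit1 and Unc5a the median there was -0.73, with 15 of 15 lower at a clustering resolution of 0.5 (-1.16), 6 of 6 in cells low in fibroblast marker UMIs (-1.34), and 15 of 27 without Per1-/- day 10 (-0.12). Efna5 stood at 2.68, 2.90 and 12.6 CPM in WT on days 4, 7 and 10 and at 1.5, 0.806 and 1.34 CPM in Per1-/- (-2.02 ± 0.42, adjusted p = 0.363, edgeR). Without Srgap2, Slit1 and Unc5a the median over 25 members was -1.74, against 0.00 over all genes, and it was -0.57 over 26 members when the WT day 10 library was left out, -0.77 over 27 members without Per1-/- day 10, and -0.90 over 6 members in the macrophage-like cells low in fibroblast marker UMIs. These members are those that passed the filter on low counts, which a gene can pass through the libraries of 1 genotype alone. All genes are not a background of like level for members this low. Without the filter, and without the same 3 genes, 34 of 36 members were lower in Per1-/- than in WT. Their median was -1.43, against 0.03 over all genes in that fit. The 6 fibroblast markers moved the same way: their median share of the fibroblast-like level was 2.60, 1.90 and 8.61% in WT and 2.55, 1.02 and 0.907% in Per1-/- on the 3 days, and their part in the result was not tested beyond these fits. In Per2-/- the share was 2.08, 2.07 and 3.02%. Cells low in these UMIs were cut at the median of each library, which did not make the genotypes equal. In those cells the share was 1.69, 0.705 and 0.539% in WT and 1.38, 0.285 and 0.276% in Per1-/-. It was 0.593, 1.32 and 1.86% in Per2-/-. Srgap2, the member macrophage-like cells carried in quantity, had a difference of 0.01 ± 0.11, and Slit1 one of -0.02 ± 0.32.

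In fibroblast-like cells the genotype result depended on 1 library. Without Per1-/- day 4, the Per1-/- library whose Xist level matched the others, 11 of 37 members were called for Per1-/- against WT, where 4.41% of all genes were (2.21% higher, 2.2% lower). Of these 10 were lower, among them Ntng1 (-1.61 ± 0.26), Efnb3 (-1.35 ± 0.13), Efna5 (-1.09 ± 0.15), Epha7 (-0.88 ± 0.13), Robo2 (-0.82 ± 0.17), Unc5c (-0.82 ± 0.11) and Robo1 (-0.70 ± 0.10), and Epha3 was higher (0.64 ± 0.12). For Per1-/- against Per2-/-, which shares those Per1-/- libraries, 11 were called where 7.63% of all genes were (4.17% higher, 3.47% lower), 9 of them the same genes, with Efna1 (-0.98 ± 0.16) and Unc5a (1.67 ± 0.30) besides.

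The fibroblast-like class differed in makeup in the same 2 libraries. Cluster 1 (led by Steap4, Cilp and Adh1) held 47.0 and 68.2% of the fibroblast-like cells of Per1-/- days 7 and 10, against 1.80 to 20.4% in the other libraries. Cluster 0 (led by Tnn, Msx1 and Tfap2b) held 1.80 and 1.66% there against 11.3 to 57.1%. Cluster 8 (led by Pcolce2 and Mia) held 53.4% in Per2-/- day 10. Within cluster 1 fitted alone, 1 member, Ephb2, was called for Per1-/- against WT (-0.68 ± 0.13), where 0.465% of all genes were. That fit kept Per1-/- day 4, so it cannot be set beside the calls made without that library.

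Guidance genes differed widely between fibroblast-like clusters, which were defined without them. Epha3 stood at 65.6 CPM in cluster 1 and 5.6 CPM in cluster 0, and Ntn1 at 28.7 and 4.2 CPM. Efna5 (27.9 against 132 CPM), Ntng1 (11.4 against 89.5 CPM), Epha7 (30.3 against 95.9 CPM), Unc5c (29.4 against 69.2 CPM) and Robo1 (54.4 against 109 CPM) had the opposite order. These values are over all 9 libraries and carry no test.

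Other clusters had their own leading guidance genes. Cluster 7 (led by Otor and Pmch) held 372 CPM of Epha5, 160 CPM of Epha4 and 127 CPM of Epha3. Cluster 20 (led by Kif26a) held 200 CPM of Robo1, 145 CPM of Ntng1 and 138 CPM of Epha7. Outside the fibroblast-like class, Slit2 reached 209 CPM and Slit3 123 CPM in the mesothelial-like class, Srgap1 93.7 CPM in the Schwann-like class, and Ntn1 38.8 CPM in the astrocyte-like class, where it ran from 0.418 to 169.6 CPM between libraries with a median of 11.1. Slit1 was not restricted to neuron-like cells among these clusters, since it stood at 16 CPM in the skeletal muscle-like cluster 18 (led by Acta1 and Mylpf), where Unc5a stood at 11.9 CPM.

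**Figure D5:**
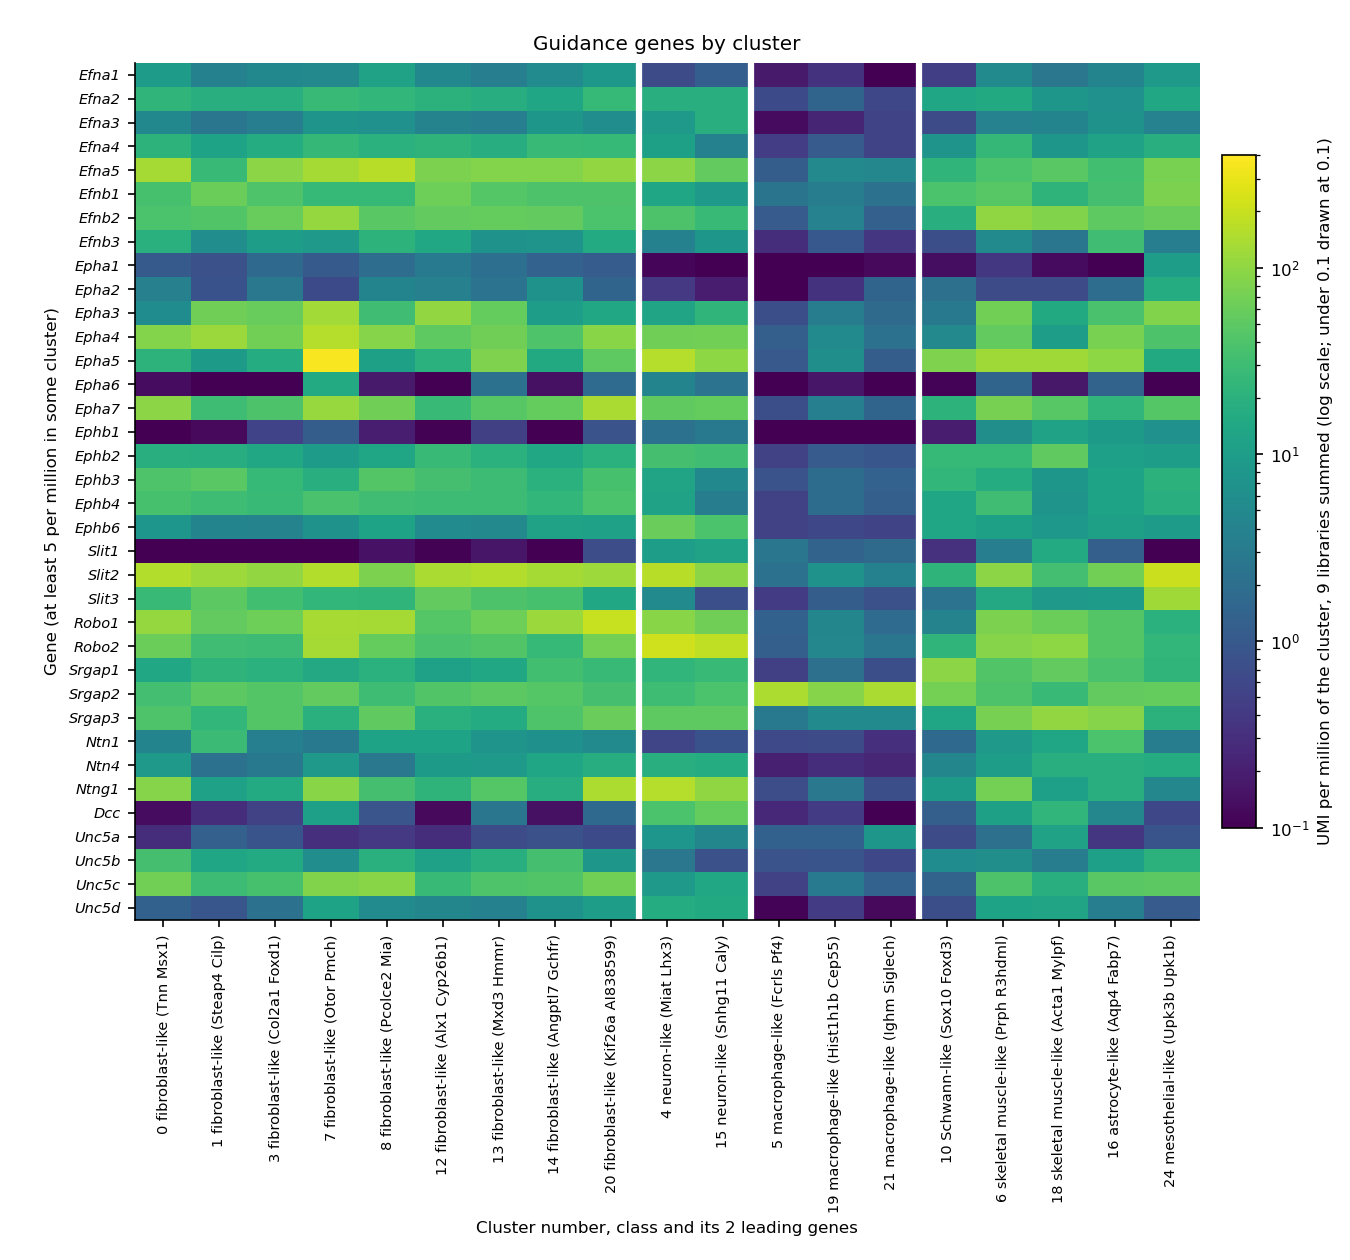
Level of the guidance genes that reached 5 CPM in some cluster (rows), in each named cluster with its 2 leading genes (columns, grouped by class), in CPM over the 9 libraries on a logarithmic colour scale. Epha3 and Ntn1 are brighter in cluster 1 than in cluster 0 and Efna5, Ntng1 and Epha7 darker, and Epha5 peaks in cluster 7 at 372.

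Partners of these families were taken from 6 lists of 44 genes. Between neuron-like and fibroblast-like cells 17 of 43 tested partners were higher and 5 lower (18.7 and 24.2% of all genes), the largest differences being those of Dscam, a netrin-binding adhesion molecule (6.83 ± 0.23), Grip1, a scaffold that binds ephrin-B tails (3.81 ± 0.17), and the kinase Pak3 (3.56 ± 0.23). The netrin and netrin-G partners had 5 of 7 higher and 2 lower. In macrophage-like cells 11 partners were higher and 18 lower than in fibroblast-like cells (19.1 and 29.5% of all genes), with Rgma, Nell2 and Flrt3 the lowest (-4.79, -4.74 and -4.62). In neuron-like cells 6 of 44 rose and 10 fell from day 4 to day 7 (12.5 and 11.9% of all genes), among them Nell2, a ligand of Robo3 (1.30 ± 0.21), Lrrc4c, the netrin-G1 ligand (1.01 ± 0.15), and Dock1 (-1.40 ± 0.18), and 2 rose and 6 fell from day 7 to day 10 (7.96 and 6.49% of all genes), among them Draxin, a Dcc ligand (-1.06 ± 0.24), Vav3 (-0.68 ± 0.12) and Tiam1 (-0.68 ± 0.12). In fibroblast-like cells Enah fell between days 4 and 7 (-0.48 ± 0.073), and edgeR called no partner between genotypes in any class.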

How the data were processed

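The authors deposited raw UMI counts per gene and cell barcode from Chromium Next GEM 3′ v3.1 libraries. Per the file headers the tables came from Cell Ranger 4.0.0 (days 4 and 7) and 6.0.0 (day 10), and per the labels from version 7.1 with mm10. The 30406 gene IDs shared by both annotations were used. Cells with under 3000 UMIs or over 20% mitochondrial UMIs were left out, as were the cells with the highest doublet scores (0.8% per 1000 barcodes). Cells were clustered with scanpy 1.11.5 (2000 variable genes, 30 components, 15 neighbours, Leiden resolution 1) without guidance, partner or mitochondrial genes. Clusters were named from marker lists, and counts were summed per library and class. Sums were tested with edgeR 4.0.16 (quasi-likelihood, TMM, filterByExpr, two-sided) in R 4.3.3, with the library as a term between classes and day plus genotype within a class. DESeq2 1.42.0 and limma-voom (limma 3.58.1) were alternatives. The edgeR tests were also run on simulated counts, with the same dispersion for every gene and no effect of day or class makeup. That check does not cover the differences in makeup between the libraries here, and its outcome is not reported.

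Members, lists and tests were chosen with earlier results of these data known. The text names every member called in any contrast, the most abundant member of each role in each class, members above both other classes in macrophage-like sums of all libraries, and for partners the counts with the 3 largest called differences per contrast. Other members, and the neighbours Arhgap19 and Hk3, were named after their values were seen. Replicate numbers are the days, so the day term is the block. Intervals cover counting error only. The deposited count totals per library ranged from 126625215 to 353198559. A search of promoter motifs is not reported here.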

Additional observations from a re-analysis of the deposited data

Results flagged for a closer look

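Several guidance genes moved between days in opposite directions in different classes, in every genotype, and whether the classes differed was not tested. From day 4 to day 7, Epha5 had a log2 difference of -0.47 in neuron-like and 0.68 in fibroblast-like cells. Ephb6 had -0.48 and 0.30, and Ephb3 -0.57 and 0.24, in the same classes. Srgap3 had 0.39 in neuron-like and -0.54 in macrophage-like cells. From day 7 to day 10, Efnb1 had -0.56 in neuron-like and 0.20 in fibroblast-like cells, and Ephb3 had -0.78 in neuron-like, 0.25 in fibroblast-like and 0.93 in macrophage-like cells. The neuron-like values of these genes passed the test, and those of the other classes did not. Under single alternatives the neuron-like direction turned for Epha5 (0.0201) and Efnb1 (0.14) at a clustering resolution of 0.5, for Ephb6 (0.0303) and Ephb3 (0.35, day 4 to day 7) in cluster 15 alone, and for Ephb3 (0.41, day 7 to day 10) in cluster 4 alone.

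Ntn3, a secreted netrin, is listed in the day 10 tables only and entered no comparison. In WT, Per1-/- and Per2-/- it stood at 6.99, 6.07 and 10.2 CPM in neuron-like sums, at 12.1, 11.4 and 13.9 CPM in fibroblast-like sums and at 2.40, 2.05 and 2.31 CPM in macrophage-like sums.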

How the results depend on the processing

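Between classes, neuron-like against fibroblast-like gave 23 to 25 calls with any library left out and 20 (Leiden resolution 0.5) to 26 (no filter on low counts) under the other alternatives. Macrophage-like against fibroblast-like gave 36 with any library left out and 36 to 38 otherwise. Total UMI scaling, added after seeing the data, gave 12 higher and 13 lower members against 10 and 14 and moved the share of higher calls over all genes from 43.6 to 58.5% (neuron-like, day 10 against day 7: from 55.1 to 30.8%). In neuron-like cells, members called for day 7 against day 4 numbered 7 to 16 with a library left out (7 without WT or without Per2-/- day 7), 10 by DESeq2, 17 by limma-voom, 7 at Leiden resolution 0.5, 2 in cluster 4 alone and 0 in cluster 15 alone. Of all 13818 genes, DESeq2 called 2616 and limma-voom 3789 for that step, against 3372 in the main fit. For day 10 against day 7 the members called numbered 2 to 6 with a library left out, 3 by DESeq2, 3 with doublets kept, 1 at Leiden resolution 0.5, 0 in cluster 4 alone and 1 in cluster 15 alone. The fewest with a library left out, 2, came without WT day 7, without Per1-/- day 10 or without Per2-/- day 10. Of all genes, DESeq2 called 1630 for the later step, against 1997 in the main fit.

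In all, 8 named values changed sign: in cluster 15 alone Ntng1 (0.57), Ephb6 (0.0303), Ephb1 (-0.0138) and Ephb3 (0.35) for day 7 against day 4, at resolution 0.5 Epha5 (0.0201) and Epha3 (-0.23) for that step and Efnb1 (0.14) for day 10 against day 7, and in cluster 4 alone Ephb3 (0.41) for the later step. Of 1457 values of named genes under alternatives, 1318 kept direction and side of the threshold and 131 kept direction only.

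For Per1-/- against WT in fibroblast-like cells the count was 0 to 11 with a library left out and 1 in cluster 1 alone. For Per1-/- against Per2-/- it was 0 to 11 with a library left out, 3 by DESeq2 and 1 in cluster 1 alone. Both counts of 11 came without Per1-/- day 4. For day 7 against day 4 it was 0 to 1 with a library left out, 2 without a filter on low counts, 4 by DESeq2, 0 at resolution 0.5, 0 with only the fibroblast-like clusters that lacked other marker lists, and 2, 2, 0, 4 and 0 in clusters 1, 3, 7, 13 and 14 alone, none of them Epha4, and for day 10 against day 7 it was 1 in cluster 1 and 1 in cluster 7 alone. In neuron-like cells no filter gave 2 calls for Per1-/- against Per2-/-, and in macrophage-like cells DESeq2 gave 1 for Per1-/- against WT. For several kinds of fit the shares of all genes called are not given in this section. These are the fits without the filter, with a library left out, with doublets kept, at Leiden resolution 0.5 and within single clusters. With doublets kept, the members' median macrophage-like level rose from 2.53 to 8.49% of the fibroblast-like level. In macrophage-like cells low in fibroblast marker UMIs the members' medians ran from 0 to 3.53% between libraries. The medians of the fibroblast markers ran from 0.276 to 1.86% there. Day is the replicate block of the genotype fits, and without this block the members called for genotype stayed at 0 in all 3 classes. The causes were not tested.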
